A study of Mus musculus with 16 samples.

Results

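The genes described here are ligands and receptors of axon guidance: the ephrins and their Eph receptors, the semaphorins with their plexin and neuropilin receptors, the Slits with their Robo receptors, and the netrins with Dcc and the Unc5 receptors. They were taken by symbol from the annotation of the array, with 1 probe set per gene (the brightest), which gave 67 genes of 19938 measured, 34 ligands and 33 receptors. Expression was measured on 16 one-colour Affymetrix arrays of total RNA from 2.5-month-old mice whose strain is given as mixed (C57BL/6, CD1). The tissues were the core of the olfactory bulb (OB) and the subependymal zone (SEZ), the wall of the lateral ventricle where neural stem cells of the adult brain lie.

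Each tissue had 3 samples from conditional knockout mice (cKO), of genotype GlastCreERT2/Brg1fl/fl, and 5 from control mice, of genotype GlastCreERT2/Brg1fl/+. SEZ control replicate 5 is the exception, being labelled GlastCreERT2/Brg1+/+. Brg1 is an ATPase that powers SWI/SNF complexes, which remodel chromatin. All mice carried the tamoxifen-dependent recombinase under the locus of Glast, a glutamate transporter of astroglia, so recombination is limited to cells that express Glast and their descendants, and cells outside that lineage keep their alleles. The labels record the mice as untreated, and the sources used here do not give the time of induction. The labels call the samples biological replicates without saying whether each came from 1 animal, and they give sex as not determined.

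Values are log2 expression per probe set, so a difference of 1 is a factor of 2 in signal. Levels are not compared between genes, because probe sets differ in brightness. Array medians lay between 7.45 and 7.65. The tissues carried their own markers: the means of 6 OB neuron markers lay between 10.99 and 11.21 in OB controls and between 7.26 and 7.88 in SEZ controls, and those of 5 striatal projection neuron markers lay between 9.12 and 9.30 in OB controls and between 12.76 and 12.92 in SEZ controls. Slc1a3, the gene of Glast, was low in cKO replicate 3 of both tissues, at 8.85 in OB and 8.16 in SEZ, against 11.16 to 12.27 in the other 14 arrays. Xist and 3 genes of the Y chromosome separated the arrays into 7 with Xist from 11.8 to 12.6, the female pattern, and 9 with Xist from 5.73 to 6.80, the male pattern. The female pattern was in 1 of 3 OB cKO, 2 of 5 OB control, 2 of 3 SEZ cKO and 2 of 5 SEZ control arrays. It was the same in both tissues for 7 of the 8 shared replicate numbers and differed for cKO replicate 1. Smarca4, the gene of Brg1, lay between 10.97 and 11.09 in OB cKO and 10.95 and 11.06 in OB control arrays, and between 10.62 and 10.77 in SEZ cKO and 10.67 and 10.78 in SEZ control arrays. The sources used here do not say whether its probe set lies in the deleted part.

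As background, guidance ligands steer growing axons and migrating cells by attraction or repulsion, and the same molecule can do either, depending on the receptors of the cell that meets it. Ephrins are bound to the membrane and act on contact: ephrin-A ligands carry a lipid anchor and bind mainly EphA receptors, and ephrin-B ligands span the membrane and bind mainly EphB receptors. Class 3 semaphorins, Slits and netrins are secreted. In the adult forebrain, neuroblasts born in the SEZ migrate in chains to the OB, and Slit repulsion, ephrin-B signalling and attraction by netrin have each been studied in that migration.

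The guidance genes differed between the tissues far more than between the genotypes. In limma, with Benjamini-Hochberg adjusted p-values over the 19938 genes and a threshold of 0.05, 40 of the 67 genes differed between OB control and SEZ control samples. Of these, 16 were higher and 24 were lower in OB. Over all genes tested the share called in this comparison was 27.5%, with 12.6% higher and 14.9% lower, against 59.7% of the guidance genes. Control samples of the tissues did not overlap for 33 guidance genes (49.3%, against 21.9% of all genes). The median difference was 0.05 over the guidance genes and 0.00 over all genes. The median size of the difference, without its sign, was 0.44 over the guidance genes and 0.12 over all genes.

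The cKO samples, which share no array with the controls but share the fit's estimate of the spread, gave 36 calls between OB cKO and SEZ cKO. They were 15 higher and 21 lower in OB, where 23.1% of all genes were called, 10% higher and 13.1% lower. Of the guidance genes, 33 were called in both genotypes, which is 33 of 36 in cKO and 33 of 40 in controls. All 33 had the same direction in both. They are 49.3% of the guidance genes, where 20.3% of all genes were called in both with the same direction. Of all genes, 0 were called in opposite directions, so the agreement of direction was not particular to the guidance genes. The cKO samples of the tissues did not overlap for 42 guidance genes (62.7%, against 33.3% of all genes). With the cKO replicate 3 samples of both tissues left out, where Slc1a3 was low, 12 guidance genes were higher and 20 lower in cKO. Epha6, Sema3d, Ntn3, Efna3 and Sema3f were no longer called, and Sema4f was gained. Over all genes 1582 were then higher and 1863 lower, against 1993 and 2621 with all arrays. With cKO replicate 1 of both tissues left out instead, 13 guidance genes were higher and 20 lower in cKO. Sema4a, Ntn3 and Plxna4 were then no longer called, and over all genes 1309 were higher and 1687 lower. Both tissues are mixtures of cells, and fewer cells of a type and less RNA per cell cannot be told apart in them. In both genotypes all 6 markers of OB neurons were higher in OB and all 5 of striatal projection neurons were higher in SEZ, and their part in the differences was not tested.

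The largest difference was that of Sema3c, a secreted semaphorin that signals through neuropilins and plexins. It was at 10.49, 10.95 and 10.17 in OB cKO samples, against 8.28, 7.67 and 7.43 in SEZ cKO samples. In controls it was at 10.13, 10.68, 10.19, 10.65 and 10.77 in OB, against 7.23, 8.13, 7.11, 8.01 and 8.23 in SEZ. Every OB sample lay above every SEZ sample, and the 2 genotypes showed the same fold, 6.68 in cKO and 6.69 in controls (log2 differences 2.74, SE 0.30, and 2.74, SE 0.23; adjusted p 2.51e-06 and 7.26e-08). The SEZ arrays were spread widely for this gene.

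Plxnd1, a plexin known in the striatum as a receptor on projection neurons of the direct pathway and as a receptor of Sema3e, had the largest difference in the other direction. It was at 8.80, 8.64 and 8.86 in OB cKO samples, against 11.20, 10.87 and 11.13 in SEZ cKO samples. The OB controls read 9.23, 9.10, 8.65, 8.64 and 8.83, against 11.05, 10.81, 11.31, 11.11 and 10.92 in SEZ controls. The tissues did not overlap in either genotype, with a log2 difference of -2.30 (SE 0.15, adjusted p = 5.62e-09) in cKO and -2.15 (SE 0.12, adjusted p = 3.03e-10) in controls, 4.92-fold and 4.43-fold lower in OB.

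**Figure D1:**
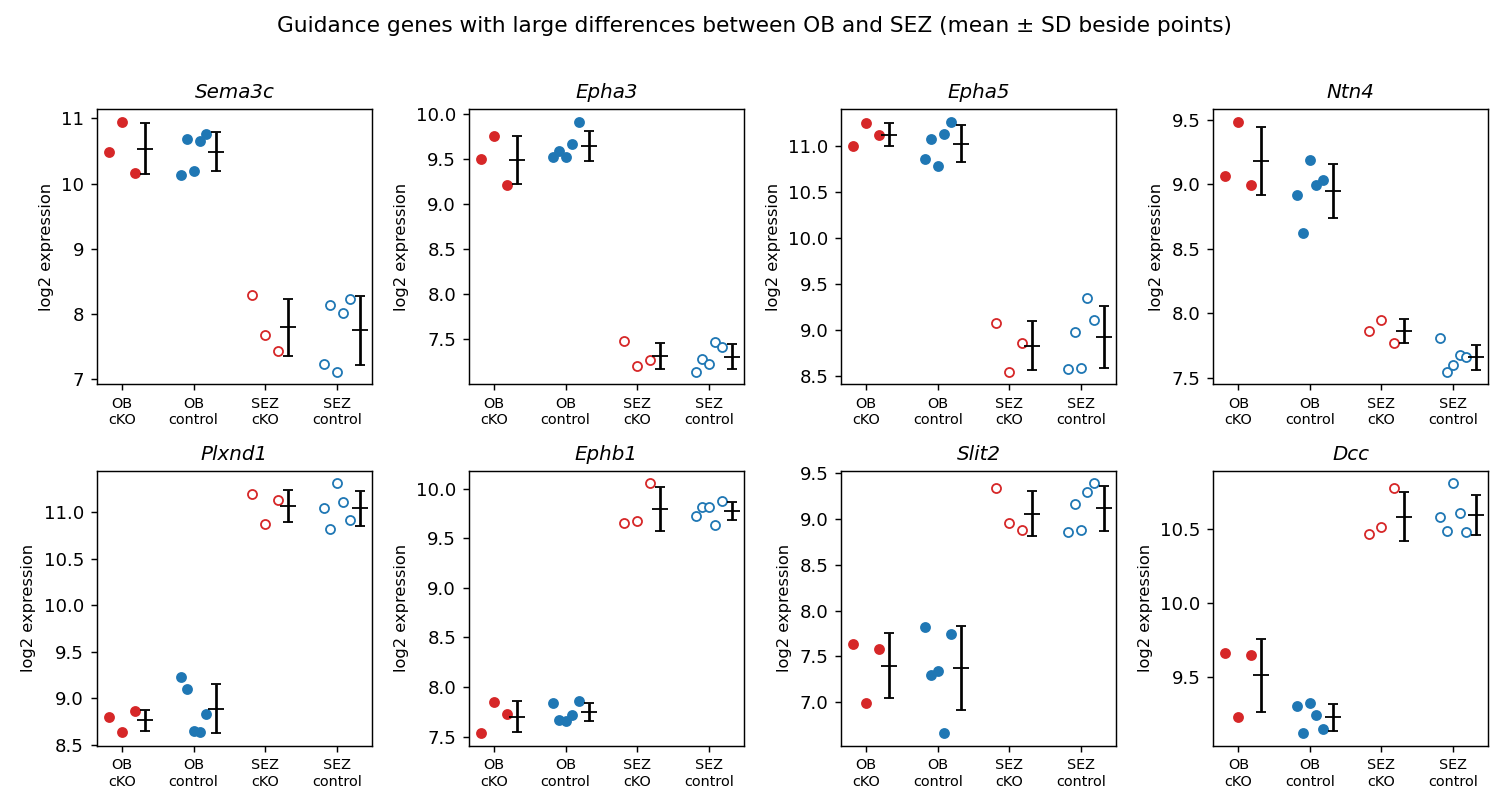
Log2 expression of 8 guidance genes in each of the 16 arrays, by tissue and genotype (red, cKO; blue, control; filled, OB; open, SEZ), with the group mean ± SD beside the points. Sema3c, Epha3, Epha5 and Ntn4 were higher in every OB array than in every SEZ array, and Plxnd1, Ephb1, Slit2 and Dcc were lower.

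The stretch before the transcription start is shown for the pair of genes with the largest difference in each direction in controls, as examples of promoters of genes with opposite tissue patterns. The sequences are from RefSeq on GRCm38.p6 and hold the 250 bases before the start, 5′ to 3′ on the gene's own strand. Capitals mark the GC box GGGCGG or its reverse complement CCGCCC. The 2 other motifs searched on both strands, the homeodomain core TAATTA and the TATA box letters TATAAA, were not found in these 4 windows. Sema3c lies on the + strand at chr5:17574566-17574815, Epha3 on the - strand at chr16:63864176-63864425, Plxnd1 on the - strand at chr6:115995006-115995255 and Ephb1 on the - strand at chr9:102354694-102354943.
Sema3c: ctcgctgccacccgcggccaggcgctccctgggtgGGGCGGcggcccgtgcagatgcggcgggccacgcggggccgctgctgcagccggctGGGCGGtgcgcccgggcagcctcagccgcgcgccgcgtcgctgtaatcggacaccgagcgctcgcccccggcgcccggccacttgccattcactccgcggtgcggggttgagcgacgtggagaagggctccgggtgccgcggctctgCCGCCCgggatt
Epha3: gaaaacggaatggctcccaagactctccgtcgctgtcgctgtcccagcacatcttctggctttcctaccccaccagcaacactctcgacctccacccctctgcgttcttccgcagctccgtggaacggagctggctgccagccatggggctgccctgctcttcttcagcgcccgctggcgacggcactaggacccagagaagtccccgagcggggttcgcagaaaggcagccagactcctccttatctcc
Plxnd1: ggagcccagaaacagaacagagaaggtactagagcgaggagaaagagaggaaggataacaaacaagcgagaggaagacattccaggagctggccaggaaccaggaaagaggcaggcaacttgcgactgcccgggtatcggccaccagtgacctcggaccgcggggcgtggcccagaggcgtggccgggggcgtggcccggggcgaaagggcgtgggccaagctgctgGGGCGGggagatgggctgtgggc
Ephb1: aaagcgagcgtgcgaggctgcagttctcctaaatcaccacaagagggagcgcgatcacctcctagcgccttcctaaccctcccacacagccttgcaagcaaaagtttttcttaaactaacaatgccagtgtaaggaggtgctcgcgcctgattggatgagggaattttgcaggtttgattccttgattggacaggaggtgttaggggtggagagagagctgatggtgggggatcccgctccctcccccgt

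Sema3c had 3 GC boxes and 39 CpG dinucleotides in this window and Plxnd1 had 1 GC box and 16 CpG dinucleotides. Epha3 and Ephb1 had no GC box and 16 and 10 CpG dinucleotides. Of the 67 guidance genes, 57 had an entry in the promoter table, and 43 of these windows (75.4%) held the GC box. The share was 32.9% of all 27025 genes in that table, whether or not on the array. The guidance windows were also richer in GC, with a median of 64.8% against 52.0%, and in CpG dinucleotides, with a median of 16 against 6. The part of this in the GC box share was not tested. TAATTA was found in 3 of the 57 (5.3%, against 4.9% of all genes) and TATAAA in 2 (3.5%, against 13.0%). The GC box was in 11 of 14 promoters of genes higher in OB control than in SEZ control samples, in 15 of 20 of genes lower there and in 17 of 23 of genes not called, so its share was similar whichever way the genes differed. These are matches of letters and say nothing about binding.

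Among the EphA receptors, kinases that read ephrin-A ligands, 5 of 9 were higher and 3 lower in OB control than in SEZ control samples. Epha3 was at 9.51, 9.75 and 9.21 in OB cKO, against 7.48, 7.20 and 7.27 in SEZ cKO samples. Its control values were 9.53, 9.59, 9.53, 9.67 and 9.92 in OB, against 7.14, 7.28, 7.22, 7.48 and 7.41 in SEZ. The tissues did not overlap for Epha3, which was 4.51-fold higher in OB in cKO (log2 difference 2.17, SE 0.13) and 5.06-fold higher in controls (2.34, SE 0.10, adjusted p = 1.68e-11).

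Epha5, the EphA receptor studied in the mapping of forebrain projections, averaged 11.12 ± 0.13 in OB cKO and 8.83 ± 0.27 in SEZ cKO samples (SD, n = 3 each), and 11.02 ± 0.20 in OB control and 8.92 ± 0.34 in SEZ control samples (SD, n = 5 each). It was 4.90-fold and 4.29-fold higher in OB. Epha10, an Eph receptor that lacks kinase activity, was 2.21-fold higher in OB in cKO and 1.77-fold higher in controls. Epha6 differed by 0.68 (SE 0.17) in cKO and 0.51 (SE 0.13) in controls, with overlapping control samples.

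Epha4, Epha7 and Epha8 ran the other way. Epha8 averaged 7.31 ± 0.03 in OB cKO and 8.76 ± 0.21 in SEZ cKO samples, and 7.35 ± 0.07 in OB control and 8.76 ± 0.28 in SEZ control samples. Epha7 was 2.91-fold lower in OB in cKO and 2.49-fold lower in controls. Epha4, which binds ephrins of both classes, was 1.82-fold and 1.63-fold lower. Epha2 was called higher in controls at 0.34 (SE 0.10, adjusted p = 0.0127) and was at 0.15 in cKO (adjusted p = 0.472). Epha1 was at 0.06 and 0.09, and its group means of 5.75 to 5.91 lie below 5.99, the lower quartile of all array values.

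Of the EphB receptors, 4 were measured and 2 were lower in OB. Ephb1 was at 7.53, 7.84 and 7.72 in OB cKO, against 9.66, 9.67 and 10.05 in SEZ cKO samples. In controls it was at 7.84, 7.67, 7.66, 7.72 and 7.86 in OB, against 9.73, 9.82, 9.82, 9.64 and 9.87 in SEZ. No OB array came near any SEZ array, with a log2 difference of -2.09 (SE 0.11, adjusted p = 2.56e-10) in cKO and -2.03 (SE 0.08, adjusted p = 8.47e-12) in controls. A second, dimmer probe set of Ephb1 gave -0.75 in controls, the same direction at a smaller size.

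Ephb6, an Eph receptor without kinase activity, was 1.61-fold lower in OB in cKO and 1.53-fold lower in controls. Ephb3 and Ephb4 were not called in either genotype, with differences from -0.24 to -0.05. Among the ligands, Efnb2 (ephrin-B2) was at 9.14, 9.65 and 9.23 in OB cKO, against 10.62, 10.43 and 10.53 in SEZ cKO samples, a log2 difference of -1.18 (SE 0.13, adjusted p = 2.01e-06). In controls Efnb2 was 1.86-fold lower in OB (-0.90, SE 0.10, adjusted p = 1.75e-06), again without overlap. Efnb3 was called lower in OB in controls (-0.60, SE 0.14, adjusted p = 0.00369) and not in cKO (-0.48, SE 0.18, adjusted p = 0.0738), and Efnb1 was at 0.02 and 0.07.

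The ephrin-A ligands differed little. Of 5, only Efna3 was called, lower in OB by -0.47 (SE 0.13, adjusted p = 0.0116) in cKO and -0.35 (SE 0.10, adjusted p = 0.0125) in controls. Efna1, Efna2, Efna4 and Efna5 had differences between -0.26 and 0.17 in the 2 genotypes, none of which passed. The cKO call of Efna3 was lost without the third OB cKO sample, or without either the second or the third of SEZ cKO.

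The secreted semaphorins other than Sema3c showed smaller differences. Sema3d was 2.21-fold higher in OB in cKO (adjusted p = 0.00952) and 1.99-fold higher in controls (adjusted p = 0.00342). Sema3e, the ligand of Plxnd1, was called lower in OB in controls (-0.40, SE 0.11, adjusted p = 0.00989) and not in cKO (-0.38, SE 0.14, adjusted p = 0.0614). Sema3f, a ligand of neuropilin-2, was lower in OB by -0.39 in cKO and -0.33 in controls, both called. Sema3a, Sema3b and Sema3g were not called, and Sema3a was at -0.29 in cKO and 0.00 in controls.

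Of the 13 semaphorins anchored in the membrane, 6 were higher and 1 lower in OB in cKO, and 5 were higher and 2 lower in controls. Sema5a averaged 10.59 ± 0.13 in OB cKO and 9.69 ± 0.15 in SEZ cKO samples, and 10.82 ± 0.26 in OB control and 9.60 ± 0.41 in SEZ control samples. It was 1.87-fold and 2.34-fold higher in OB. Sema6c was 2.01-fold higher in cKO and 2.00-fold higher in controls, Sema4g 1.81-fold and 1.70-fold, and Sema6a, a ligand of plexin-A2 and plexin-A4, 1.55-fold and 1.67-fold.

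Sema7a, the semaphorin with a lipid anchor, was lower in OB by -0.54 (adjusted p = 0.00254) in cKO and -0.30 (adjusted p = 0.0229) in controls. The control call was lost when 1 of OB controls 1 and 3 or SEZ controls 4 and 5 was left out, with adjusted p from 0.0551 to 0.0643. Sema4f was called lower in controls (-0.43, adjusted p = 0.00395) and not in cKO (-0.30, adjusted p = 0.131). Sema4a was called higher in cKO (0.55, adjusted p = 0.00893) and was at 0.20 in controls, a difference between the genotypes that did not pass its own test (0.35, SE 0.18, adjusted p = 1). The Sema4a call was lost without OB cKO replicate 1 or SEZ cKO replicate 2.

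Plexins, the receptors that carry the semaphorin signal into the cell, split by gene. Besides Plxnd1, Plxnb3, Plxna2, Plxna4 and Plxnb1 were lower in OB in both genotypes, by 1.82-fold, 1.88-fold, 1.61-fold and 1.50-fold in cKO and by 1.85-fold, 1.57-fold, 1.43-fold and 1.39-fold in controls. Plxna3 was the one plexin higher in OB in both. It was at 9.70, 9.63 and 9.63 in OB cKO, against 8.68, 8.42 and 8.55 in SEZ cKO samples, a log2 difference of 1.10 (SE 0.09, adjusted p = 1.09e-07), and in controls the difference was 0.83 (SE 0.07, adjusted p = 1.01e-07). Plxna1 was called higher in controls at 0.35 and not in cKO at 0.16, and Plxnb2 and Plxnc1 were not called.

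The neuropilins, which bind class 3 semaphorins and partner with A-type plexins, were not called. Nrp1 was at 0.40 in both genotypes (adjusted p = 0.239 in cKO and 0.109 in controls), and Nrp2 at 0.57 (adjusted p = 0.199) and 0.60 (adjusted p = 0.0639). Their SEZ samples were uneven. Nrp2 was at 8.15, 7.69 and 7.03 in SEZ cKO and at 7.65, 8.05, 7.11, 8.26 and 8.01 in SEZ control samples. Nrp1 passed in controls without SEZ control replicate 2, and Nrp2 without OB control replicate 3, SEZ control replicate 4, or either of SEZ cKO replicates 1 and 3.

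The Slit and Robo genes differed member by member. Slit2, a secreted repellent of migrating neuroblasts and of forebrain axons, was at 7.63, 6.99 and 7.58 in OB cKO, against 9.34, 8.96 and 8.88 in SEZ cKO samples. The control values were 7.82, 7.30, 7.34, 6.66 and 7.75 in OB, against 8.86, 9.16, 8.88, 9.29 and 9.39 in SEZ. Slit2 was 3.16-fold lower in OB in cKO (log2 difference -1.66, SE 0.25) and 3.35-fold lower in controls (-1.74, SE 0.19), with no overlap between tissues.

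Slit3 was also lower in OB, 2.04-fold in cKO and 2.14-fold in controls, whereas Slit1 was at 0.02 and 0.10 and was not called. The receptor Robo1 averaged 9.93 ± 0.15 in OB cKO and 11.05 ± 0.14 in SEZ cKO samples. It was 2.18-fold lower in OB in cKO and 1.97-fold lower in controls. Robo2 was called the other way in controls, higher in OB by 0.46 (SE 0.09, adjusted p = 0.000845), and was at 0.18 (SE 0.12, adjusted p = 0.325) in cKO. Robo3, known for commissural axons, and Robo4, a receptor of endothelial cells, were not called.

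Of the netrin ligands, Ntn4 had the largest difference in both genotypes. It is a netrin related to laminins and found in basement membranes. In controls Ntn4 was at 8.92, 8.62, 9.19, 8.99 and 9.03 in OB, against 7.81, 7.55, 7.60, 7.68 and 7.66 in SEZ. It was 2.50-fold higher in OB in cKO and 2.45-fold higher in controls, without overlap (adjusted p = 9.41e-07 in cKO and 3.42e-08 in controls).

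Of the 5 netrin receptors, 3 were lower in OB in cKO and 4 in controls, and none was higher. Dcc, the receptor through which netrin-1 attracts axons, was at 9.66, 9.23 and 9.65 in OB cKO, against 10.46, 10.51 and 10.77 in SEZ cKO samples. Its control values were 9.31, 9.12, 9.33, 9.24 and 9.15 in OB, against 10.58, 10.48, 10.81, 10.61 and 10.48 in SEZ. The tissues were apart in both genotypes, by -1.07 (SE 0.12, adjusted p = 3.18e-06) in cKO and -1.36 (SE 0.09, adjusted p = 4.36e-09) in controls.

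The Unc5 receptors mediate repulsion by netrin. Unc5b was 1.73-fold lower in OB in cKO and 2.04-fold lower in controls, and Unc5c 1.88-fold and 1.58-fold lower. Unc5a was called in controls (-0.59, adjusted p = 0.00173) and not in cKO (-0.43, adjusted p = 0.0704), and Unc5d was at 0.11 and 0.10. Ntn1 was called lower in OB in cKO (-0.69, SE 0.13, adjusted p = 0.000889) and not in controls (-0.26, SE 0.10, adjusted p = 0.0744), where it passed without SEZ cKO replicate 1 or 2 or SEZ control replicate 3. Ntn3 was called higher in cKO at 0.57 (adjusted p = 0.0313) and was at 0.31 in controls. The Ntn3 call was lost with sex as a covariate, an alternative chosen after seeing the data, and was also lost without OB cKO replicate 1 or 3 and without SEZ cKO replicate 1 or 2.

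**Figure D2:**
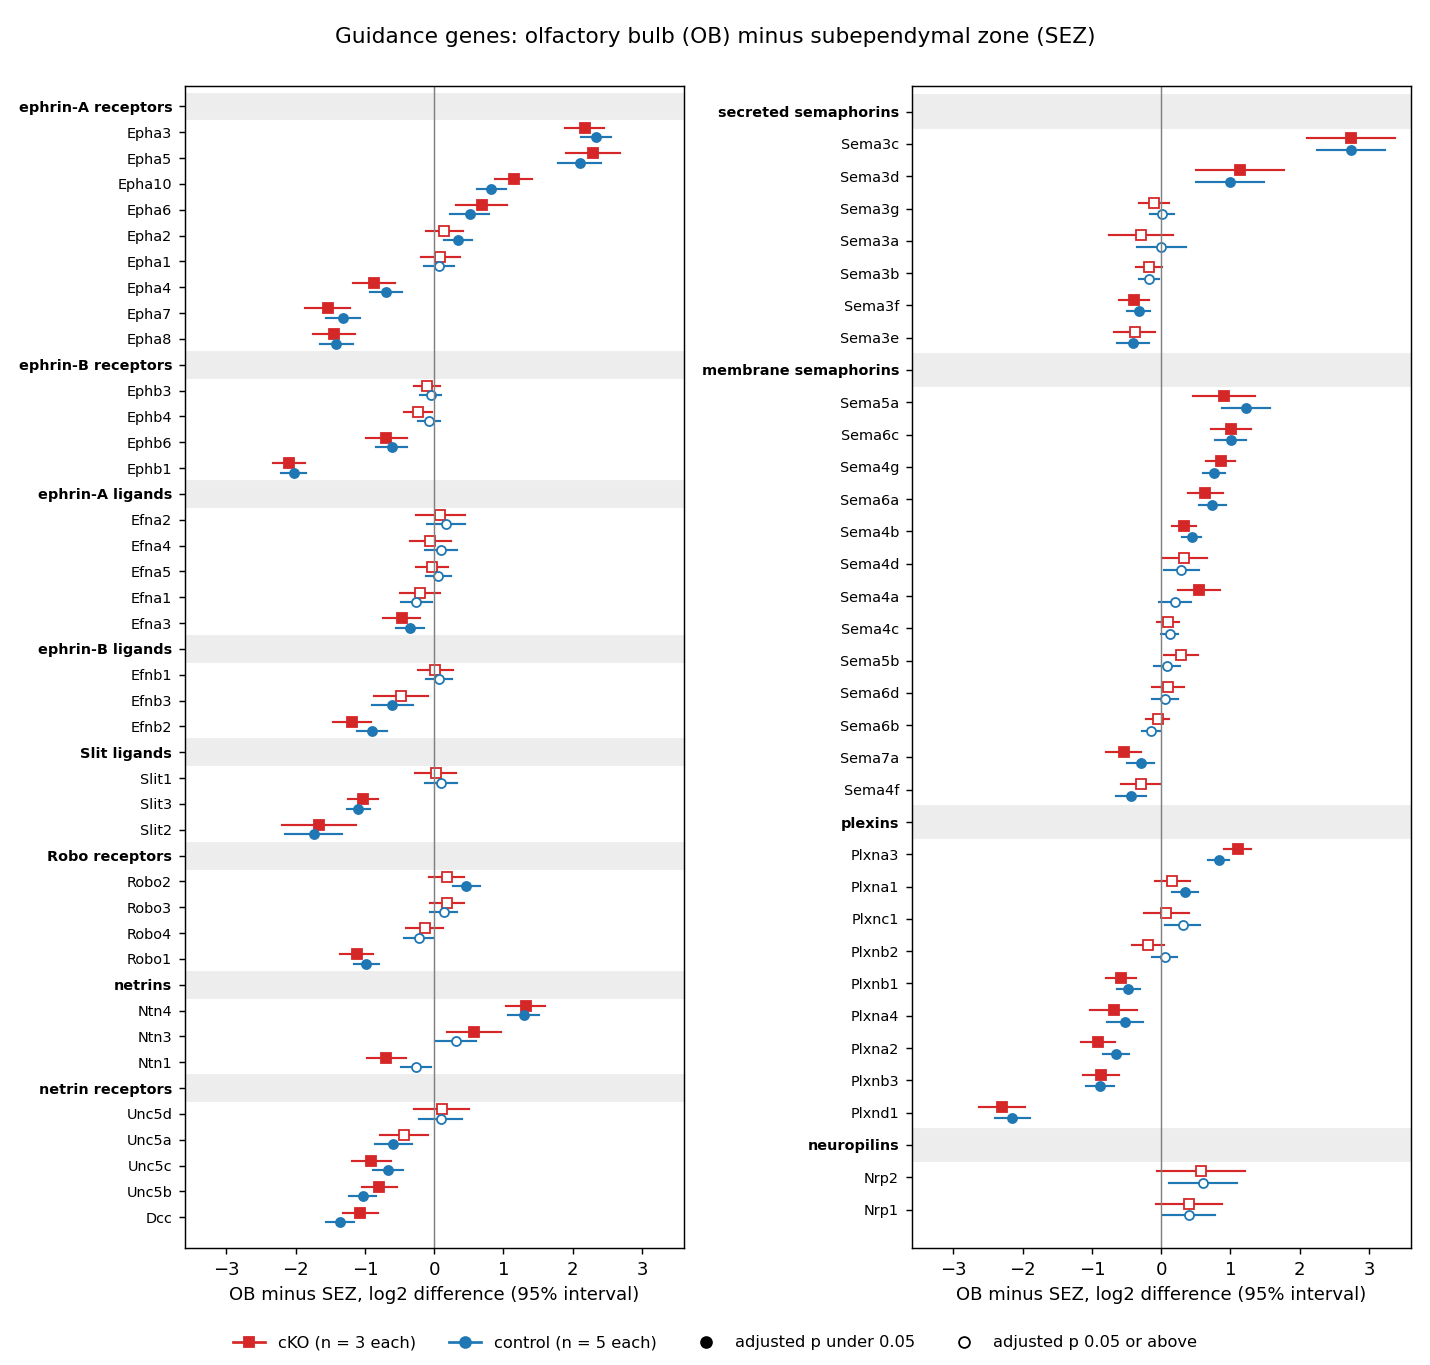
OB minus SEZ difference (log2, with 95% interval) of all 67 guidance genes, by role, in cKO (red squares, n = 3 each) and control samples (blue circles, n = 5 each); filled marks passed at an adjusted p under 0.05. Differences ran from -2.30 for Plxnd1 to 2.74 for Sema3c. The 33 genes called in both genotypes had the same direction in both, as had every measured gene called in both.

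The genes varied unequally within groups. The residual SD of the fit had a median of 0.17 over the guidance genes and 0.14 over all genes, and among the guidance genes it ran from 0.08 for Sema4c to 0.43 for Sema3c. Sema3d (0.42), Nrp2 (0.42), Slit2 (0.35) and Nrp1 (0.31) came next. Nrp1 and Sema3c were low together in SEZ control replicates 1 and 3. Nrp1 was at 7.75 and 7.69 there and at 8.63, 8.55 and 8.40 in SEZ control replicates 2, 4 and 5. Slc17a7 marks excitatory neurons of the cortex but is not particular to them here, as it averaged 12.47 in OB controls and 9.56 in SEZ controls. SEZ control replicates 2 and 4 read 10.58 and 11.06 for it, and replicates 1, 3 and 5 read 8.74, 8.44 and 8.98, and its part was not tested. Without SEZ control replicates 2 and 4, Sema4d, Nrp1 and Nrp2 were also called higher in OB, and Epha2 and Sema7a were no longer called. In controls 18 guidance genes were then higher and 23 lower. Over all genes 2048 were then higher and 2576 lower, against 2512 and 2979 with all arrays.

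In the OB, no guidance gene passed between cKO and control samples in limma. The share called over all genes was 0.0451%, 9 genes, all lower. The guidance genes' differences ran from -0.33 for Efnb2 to 0.35 for Epha10, with a median of -0.04 against -0.01 over all genes, and 41 of 67 (61.2%) lay below 0, against 52.1% of all genes. The median half-width of their 95% intervals was 0.25, and for 55 of the 67 the whole interval lay within a log2 difference of 0.5 either way. At an unadjusted p under 0.05 there were 7 guidance genes, 5 lower and 2 higher (10.4%, against 3.51% of all genes). By direction, 2.64% of all genes were lower and 0.868% higher at that p.

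Epha10 had the smallest unadjusted p in OB, 0.00722 in limma. It was at 9.10, 8.99 and 9.26 in OB cKO, against 8.87, 8.55, 8.79, 8.83 and 8.81 in OB control samples. The 3 cKO samples lay above the 5 controls, with a log2 difference of 0.35 (95% interval 0.11 to 0.59, adjusted p = 1). The other probe set of Epha10 gave 0.43.

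Efnb2 was at 9.14, 9.65 and 9.23 in OB cKO, against 9.62, 9.82, 9.37, 9.71 and 9.84 in OB control samples. The groups overlapped through cKO replicate 2, and the difference was -0.33 (95% interval -0.58 to -0.09, unadjusted p = 0.0104 in limma). Dcc was at 9.66, 9.23 and 9.65 in OB cKO, against 9.12 to 9.33 in OB control samples. Here cKO replicate 2 lay inside the control range, and the difference was 0.28 (0.06 to 0.51, unadjusted p = 0.0179 in limma).

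Robo2 differed by -0.25 (95% interval -0.48 to -0.03), Plxnb2, a plexin studied in migrating neuroblasts, by -0.23 (-0.44 to -0.02), Efna3 by -0.27 (-0.50 to -0.03) and Slit1 by -0.27 (-0.53 to -0.01). Their adjusted p was 1 in limma, so none of them is called. Epha10, Efna3 and Ntn1 were the 3 guidance genes whose OB cKO and control samples did not overlap (4.48%), where 2.53% of all genes had no overlap. The mean over 5 neuroblast markers ran from 10.45 to 10.71 in OB cKO and from 11.06 to 11.39 in OB control samples. Their differences were uneven, at -1.50 for Cd24a, -0.89 for Sox11, -0.32 for Dcx, -0.20 for Dlx2 and -0.08 for Dlx1. Of the 5, only Cd24a was called, lower in cKO. The part of this list in the values of the guidance genes was not tested.

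**Figure D3:**
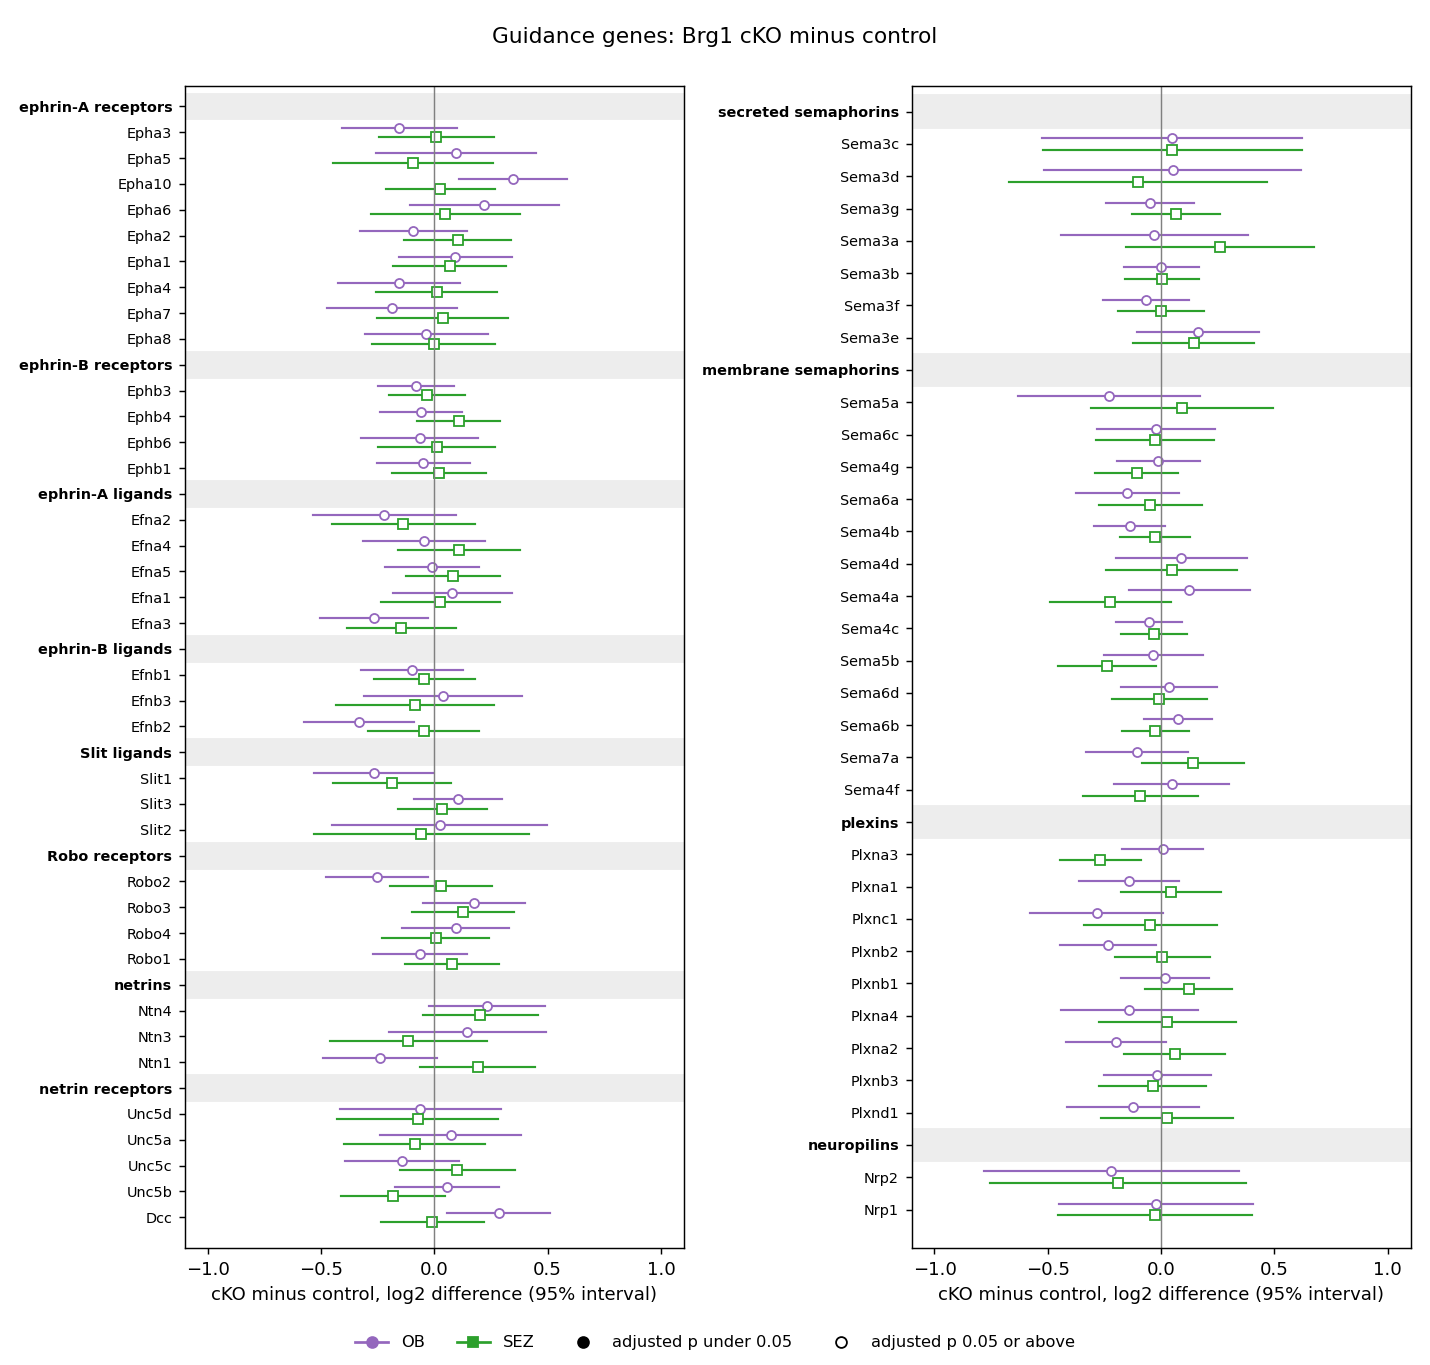
cKO minus control difference (log2, with 95% interval) of all 67 guidance genes, by role, in OB (purple circles) and SEZ (green squares), from 3 cKO and 5 control samples in each tissue. No gene passed at an adjusted p under 0.05 in either tissue, so all marks are open, and the differences lay between -0.33 and 0.35.

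In the SEZ, likewise, no guidance gene passed in limma between cKO and control samples, where 0% of all genes were called. Differences ran from -0.27 for Plxna3 to 0.26 for Sema3a, with a median of 0.01, against 0.00 over all genes. The whole interval lay within a log2 difference of 0.5 for 62 of the 67. At an unadjusted p under 0.05 there were 2 guidance genes, both lower (2.99%, against 2.47% of all genes), so the share was near that of all genes, of which 1.01% were lower.

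These 2 were Plxna3 and Sema5b. Plxna3 was at 8.68, 8.42 and 8.55 in SEZ cKO, against 8.93, 8.81, 8.88, 8.62 and 8.84 in SEZ control samples. The groups overlapped by cKO replicate 1 and control replicate 4, and the difference was -0.27 (95% interval -0.45 to -0.09, unadjusted p = 0.00546 in limma, adjusted p = 1). Sema5b was at 8.82, 8.96 and 8.70 in SEZ cKO, against 9.25, 9.03, 8.78, 9.25 and 9.03 in SEZ control samples, a difference of -0.24 (-0.46 to -0.02).

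The next 4 by unadjusted p were Sema4a at -0.22 (95% interval -0.49 to 0.04), Ntn4 at 0.20 (-0.05 to 0.46), Unc5b at -0.18 (-0.41 to 0.05) and Ntn1 at 0.19 (-0.06 to 0.45). In 0 of the 67 genes were the SEZ cKO and control samples free of overlap, where 2% of all genes were. The neuroblast marker mean lay between 9.44 and 9.50 in SEZ cKO and between 9.66 and 10.14 in SEZ control samples. The neuroblast differences ran from -0.56 for Dlx1 to -0.13 for Sox11. The mean of 3 genes of dividing cells lay between 7.50 and 7.69 in cKO and between 8.03 and 8.17 in control samples. No gene of either list was called between SEZ cKO and control samples, and their part was not tested.

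For the difference of the cKO effect between the tissues no guidance gene passed after adjustment in limma, where 0.00502% of all genes, 1 gene, passed. At an unadjusted p under 0.05 there were 2 guidance genes (2.99%, against 1.48% of all genes). Ntn1, netrin-1, was at 7.91, 7.84 and 8.03 in OB cKO, against 8.21, 8.24, 8.06, 8.26 and 8.06 in OB control samples. It was at 8.92, 8.26 and 8.68 in SEZ cKO, against 8.64, 8.49, 8.26, 8.41 and 8.34 in SEZ control samples.

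The estimate for Ntn1 was thus -0.24 in OB and 0.19 in SEZ, a difference of -0.43 (95% interval -0.79 to -0.07, unadjusted p = 0.0211 in limma, adjusted p = 1). For Plxna3 the estimates were 0.01 in OB and -0.27 in SEZ, a difference of 0.28 (0.02 to 0.53). Epha10 (0.32), Sema4a (0.35), Dcc (0.29) and Robo2 (-0.28) followed, with intervals that included 0.

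**Figure D4:**
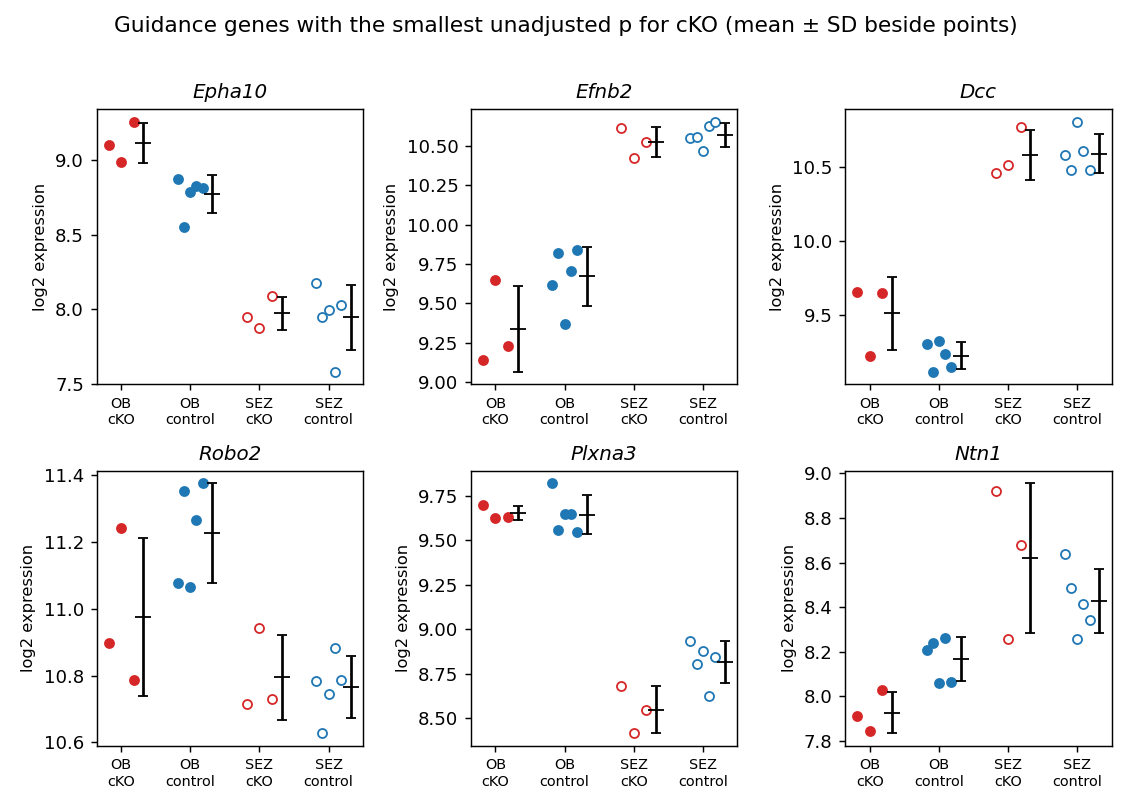
Log2 expression of 6 guidance genes among those with the smallest unadjusted p for cKO, in each of the 16 arrays (red, cKO; blue, control; filled, OB; open, SEZ), with the group mean ± SD beside the points. OB cKO and OB control arrays did not overlap for Epha10 and Ntn1 and overlapped for Efnb2, Dcc and Robo2, and SEZ cKO and SEZ control arrays overlapped for Plxna3.

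A list of 64 partners and intracellular effectors of the same receptors, of which 61 were measured, differed between the tissues in a like share. In cKO 23 were higher and 12 lower in OB (57.4%, against 23.1% of all genes), and in controls 24 were higher and 13 lower (60.7%, against 27.5%). Among the higher genes were the actin-binding Ablim3, at 3.07 in cKO and 2.98 in controls, the adhesion molecule and netrin receptor Dscam (1.74 and 1.73), the Ras GTPase-activating protein Rasa1 (1.51 and 1.32), Ablim1 (1.09 and 1.08) and the collapsin response mediator Crmp1 (0.96 and 0.98).

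Among the lower genes of that list were Chl1, a relative of L1cam that binds neuropilin-1 (-1.85 in cKO and -1.83 in controls), and Ngef, the exchange factor ephexin downstream of Epha4 (-1.70 and -1.78). Srgap1, which binds Robo1 (-1.58 and -1.60), and Flrt3 and Flrt2, ligands of Unc5 receptors (-1.54 and -1.36, and -1.44 and -1.26), were also lower in OB. All 10 were called in both genotypes. Between cKO and control samples 0 of the 61 passed in limma in either tissue, where 0.0451% of all genes passed in OB and 0% in SEZ. At an unadjusted p under 0.05 there were 6 in OB (9.84%, against 3.51% of all genes) and 2 in SEZ (3.28%, against 2.47%). Dpysl3, a collapsin response mediator of young neurons, came closest in OB, at -0.54 (SE 0.10, adjusted p = 0.0853).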

How the data were processed

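The deposited values are log2 expression per probe set and array, made by the authors with RMA in Affymetrix Expression Console 1.2, per the submitters' processing notes. RMA corrects background, normalises quantiles and summarises probes, which pulls overall distributions of the arrays together. No scanner values or detection calls were used, and the number of arrays limits the precision. Of 35556 probe sets, 21789 had 1 symbol, 1621 several and 12146 none. Through Entrez identifiers 21698 were found in RefSeq on GRCm38.p6, and 0 symbols changed. The brightest probe set stood for a gene, and 5 guidance genes had more than 1. The probe sets of Sema6b gave the same mean and differences, so the choice made no difference there. Ephb2 was not analysed here.

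All 16 arrays were fitted with limma 3.58.1 in R 4.3.3 (lmFit, eBayes) with 4 groups of tissue by genotype, 12 residual and 4.34 prior degrees of freedom, two-sided tests and Benjamini-Hochberg adjustment over 19938 genes. Differences are cKO minus control and OB minus SEZ. The fit was tested on simulated data with independent noise. The differences put in were larger than every cKO difference of the guidance genes, so the test does not show whether differences of that size would be found. Genes named were up to 4 per role and direction between tissues, the 6 with the smallest p for cKO, and single others named after their values were seen. From the partner list, up to 5 per direction were named. Members and lists were chosen with earlier results of these data known. The p-values set each difference against the spread between these samples, which the fit takes as independent.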

Additional observations from a re-analysis of the deposited data

Results flagged for a closer look

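In 134 sets of 5 control values (67 genes in 2 tissues), 3 held an array far from the others by Dixon's test at the 95% level, where chance gives about 1 in 20. Epha10 was at 8.55 in OB control replicate 2, against 8.79 to 8.87 in the other OB controls. Sema4b was at 9.23 in SEZ control replicate 1, against 9.04 to 9.09. Sema4c was at 8.32 in OB control replicate 5, against 8.45 to 8.47. Each lay in a different array.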

How the results depend on the processing

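The counts of guidance genes called were computed under 31 alternatives (30 for the difference of the cKO effects), and each stayed within 1.5 times its value. It stayed at 0 for cKO against control in OB, in SEZ and for their difference. For OB against SEZ in cKO the count ranged from 12 to 16 higher and 20 to 25 lower, and in controls from 14 to 22 higher and 23 to 29 lower. The calls over all genes moved too, from 1309 to 2563 higher and 1687 to 3249 lower in cKO. In controls they ran from 2036 to 3383 higher and 2142 to 3756 lower. Both low ends came where only genes above the median level were tested, so they are counts out of a smaller total, not lower shares. Leaving out 1 array gave 13 to 16 guidance genes higher and 20 to 23 lower in cKO, and 16 to 18 higher and 23 to 26 lower in controls. Of 37 named tissue differences in controls, 36 passed in every alternative that tested them and Sema7a did not, and 0 changed sign. With only genes above the median level, 54 guidance genes were tested, which gave the low end of 14 higher in controls. Epha2, Epha8 and Sema3d, called in controls in the main fit, were among the guidance genes left out there. The part of expression level in the share of guidance genes called was not tested. Sex, read from Xist and Y genes, was used as a covariate in an alternative chosen after seeing the data. Every count of guidance genes was then as reported, with Sema5b gained and Ntn3 lost in cKO.

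Samples of the 2 tissues share replicate numbers, but their deviations from the group means correlated at -0.06 in 1 pair, cKO 1, and at 0.17 to 0.57 in the other 7. Of the 8 OB samples, 5 correlated best with their own number, and the sex pattern was the same in 7 of the 8 pairs. Because the samples of pair cKO 1 neither correlated nor shared the sex pattern, the numbers were not taken to pair the samples in the main fit. The samples of pair control 5 carry different genotype labels, Brg1fl/+ in OB and Brg1+/+ in SEZ, so by their labels they are not from 1 animal. The remaining pairs may each come from the same animals, which the labels do not say. The main fit treated all samples as independent. With the replicate block as a random term 16 guidance genes were higher and 25 lower in cKO, and 19 and 27 in controls. With the number as a fixed block the counts were 16 and 25, and 22 and 24. That fixed block also joined cKO and control samples of the same number, which are different mice. Over all genes the random block gave 2353 higher and 3087 lower in cKO, and 2939 and 3349 in controls. The fixed block gave 2563 and 3249 over all genes, and 3083 and 3443. Both blocks added Ephb4, Efnb3, Sema3e and Unc5a to the lower genes in cKO, and Sema4d, Plxnc1 and Nrp2 to the higher genes in controls. The random block also added Sema5b in cKO, higher, and Sema3b, Sema6b and Ntn1 in controls, lower. The fixed block also added Sema4d in cKO and Sema4a, Nrp1 and Ntn3 in controls, all higher. No guidance gene called without a block was lost. Either block left the counts of guidance genes for cKO against control at 0.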
